A study of Mus musculus with 10 samples.

Results

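Epididymal white adipose tissue is the visceral fat depot beside the epididymis, and its macrophage content varies between mice on the same diet. Here 4 fat samples rich in lipid-associated macrophage transcripts were compared with 4 poor in them, with both genotypes of the study equally represented. The samples were chosen by a measured score, the mean log2(RPM + 1) of 25 measured lipid-associated macrophage genes, where RPM scales the reads of a gene to a common library total. Within each genotype the 2 libraries with the highest score form the rich fat and the 2 with the lowest form the poor fat, which takes 8 of the 10 libraries of the series. The rich fat holds wild-type 3, wild-type 5, Srgn-knockout 1 and Srgn-knockout 4. The poor fat holds wild-type 1, wild-type 2, Srgn-knockout 2 and Srgn-knockout 3, and wild-type 4 and Srgn-knockout 5 lie between and were left out.

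The series compared male C57BL/6 mice with an intact serglycin gene (Srgn+/+, here wild-type, 5 mice) and mice without it (Srgn-/-, here Srgn-knockout, 5 mice). All were 18 weeks old, and all had received a high sucrose/high fat diet during 8 weeks, so rich and poor fat share strain, sex, age and diet. Serglycin is a proteoglycan of secretory granules in blood-derived cells. Total RNA of each sample was read with an AmpliSeq panel, which amplifies 1 short target per gene. The labels list 5 samples per genotype without naming the animal behind each, and the numbers 1 to 5 only name libraries in deposition order.

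Lipid-associated macrophages gather around dying adipocytes in obese fat, where they form crown-like structures and take up the released lipid. They are known for the lipid-sensing receptor Trem2, the glycoprotein Gpnmb, the integrin Itgax (CD11c) and Atp6v0d2, a subunit of the proton pump that acidifies lysosomes. The lipid they engulf is broken down in lysosomes, whose genes are known targets of the MiT/TFE transcription factors, which bind the E-box variant CLEAR.

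The 10 libraries held 7824764 to 10757779 reads, and 13080 genes of 23930 amplicons passed the filter on low counts. Srgn gave 776 to 1301 reads in the wild-type libraries and 0 to 12 in the Srgn-knockout libraries, so the counts match the labels. Adipose RNA was present throughout, with Fabp4, the adipocyte fatty acid carrier, at 13885 to 18574 CPM (counts scaled like RPM and corrected by TMM factors). Epididymis transcripts stood out in 3 libraries: the summed level of 25 epididymis and testis genes reached 7761 CPM in Srgn-knockout 3, and 1245 and 1086 CPM in the left-out wild-type 4 and Srgn-knockout 5. Wild-type 1 held 145 CPM, and the other 6 libraries held 1.53 to 44.5 CPM. Summed levels of blood genes (17.4 to 49.6 CPM) and of skeletal muscle genes (93.5 to 154.8 CPM) were low in all 10. Only 4 of the 11 blood genes were measured, against 13 of 15 skeletal muscle genes. The low blood sum therefore does not show how much blood the samples held. Where fat of this kind is read in bulk, fewer cells of a type and less RNA per cell cannot be told apart.

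The scores that chose the libraries are given as a description. They were 6.85, 7.83, 7.24 and 7.51 in the poor fat (wild-type 1, wild-type 2, Srgn-knockout 2 and Srgn-knockout 3) and 8.28, 8.95, 8.24 and 8.15 in the rich fat (wild-type 3, wild-type 5, Srgn-knockout 1 and Srgn-knockout 4). Values of single genes below follow the same 2 orders. The left-out wild-type 4 (8.09) lay just under wild-type 3, and the left-out Srgn-knockout 5 (7.70) just above Srgn-knockout 3. The gap between rich and poor was thus wider in wild-type (1.27) than in Srgn-knockout fat (0.82). A ranking by the 4 markers alone placed all 8 libraries alike. A ranking by the pan-macrophage list placed 7 of 8 alike and took wild-type 4 into the poor fat in place of wild-type 2.

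Trem2 measured 13.9, 80.7, 28.6 and 50.3 CPM in the poor and 141, 482, 165 and 119 CPM in the rich libraries. Gpnmb measured 31.4, 114, 48.4 and 96.2 CPM in the poor and 309, 788, 205 and 285 CPM in the rich libraries. Atp6v0d2 measured 8.82, 70.3, 15.5 and 43.6 CPM in the poor and 135, 385, 127 and 133 CPM in the rich libraries. Wild-type 5 was the highest library for all 3 genes, wild-type 1 the lowest, and rich and poor did not overlap. Itgax ran from 17.0 to 49.1 CPM in poor fat and from 59.3 to 180.1 CPM in rich fat.

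**Figure D1:**
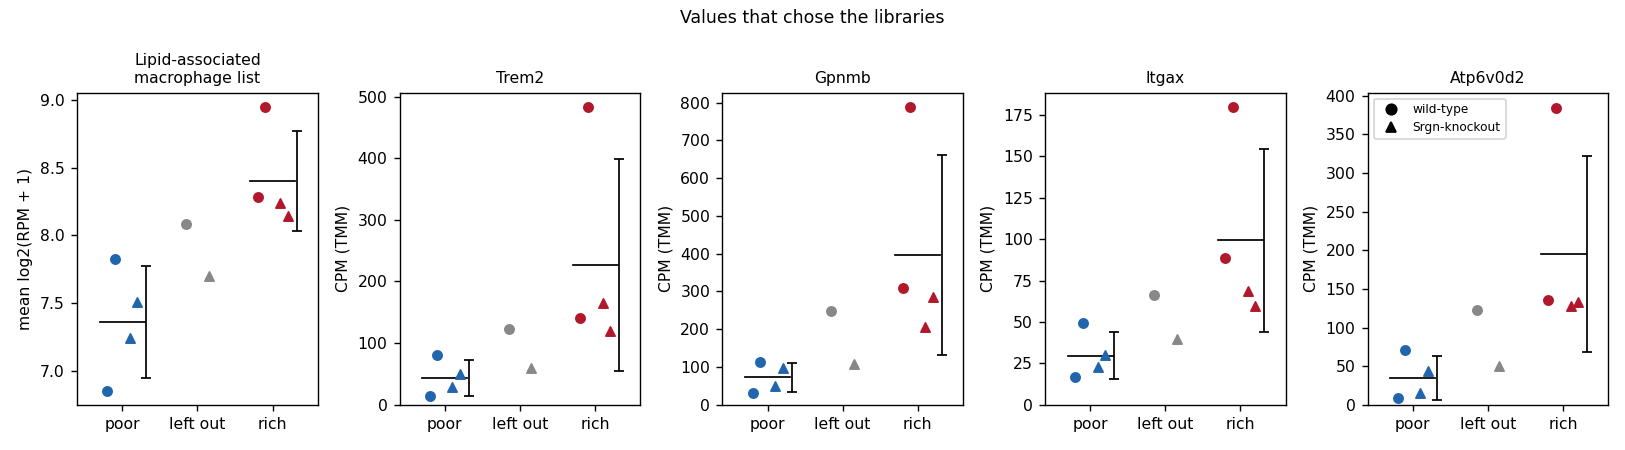
Values that chose the libraries: the mean log2(RPM + 1) of the lipid-associated macrophage list and the CPM of Trem2, Gpnmb, Itgax and Atp6v0d2. Points are libraries (circles wild-type, triangles Srgn-knockout; blue poor, grey left out, red rich), lines are means and bars SD over 4 libraries. Wild-type 5 stands above the other rich libraries in all 5 panels.

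Every gene of the contrast counts as used by the choice of libraries, so rich and poor fat are described below by differences with a standard error (SE) and by overlap, with no p-value. In direction alone, 6423 of 13080 tested genes were higher in rich fat and 6657 were lower. A gene is called past the rule where its log2 difference was at least 1, a 2-fold difference, and no rich library overlapped a poor one. On this rule 230 of 13080 genes (1.76%) were higher in rich fat and 98 (0.749%) were lower. At any size, 783 genes (5.99%) were higher and 561 (4.29%) lower without overlap. Wild-type 2, the poor library with the highest score, decides many of these calls: without it 597 genes were higher and 389 lower. Without Srgn-knockout 4, the rich library with the lowest score, 367 were higher and 188 lower. Without Srgn-knockout 3, the library with the most epididymis RNA, 277 were higher and 118 lower, and without wild-type 1, 173 and 87. Requiring no overlap only within each genotype gave 327 and 149. The list counts below are to be read beside the shares given here over all 13080 genes.

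Wild-type and Srgn-knockout fat share no library, but rich and poor were chosen by the same score in both, so genes that follow that score move alike by the choice itself. The shares here are a description and support nothing. Of 562 genes outside the lipid-associated macrophage list that were higher in rich wild-type fat by a log2 of 1 without overlap, 426 (75.8%) were also higher in rich Srgn-knockout fat, against 49.7% of all 13055 genes outside the list. Of 409 genes chosen in the same way in Srgn-knockout fat, 391 (95.6%) were higher in rich wild-type fat, against 50.8% of all. Genes lower in rich wild-type fat (224) were lower in 197 cases (87.9%) in rich Srgn-knockout fat. The reverse differed: of 704 genes lower in rich Srgn-knockout fat, 355 (50.4%) were lower in rich wild-type fat. The poor Srgn-knockout fat includes Srgn-knockout 3 with its 7761 CPM of epididymis transcripts, and the part of this RNA in those 704 genes was not tested.

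**Figure D2:**
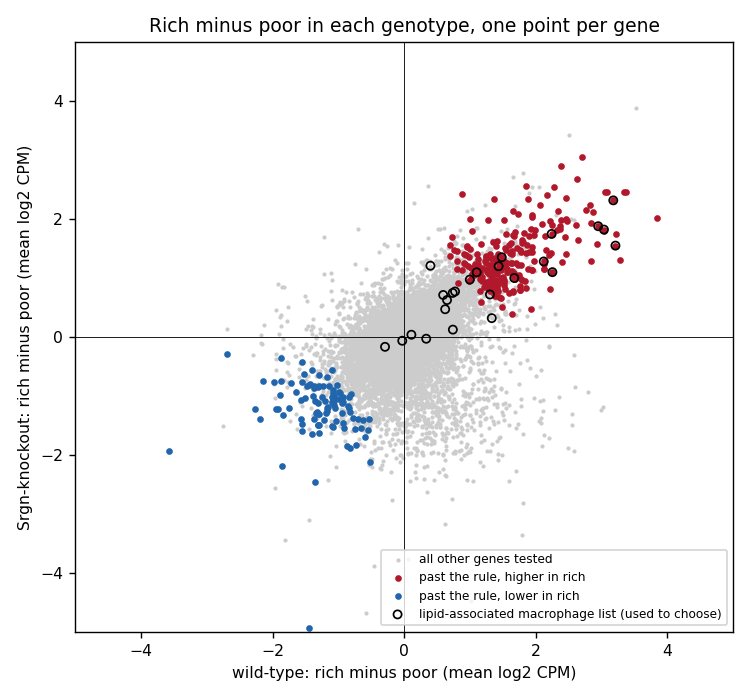
Rich minus poor difference of mean log2 CPM for 13080 genes, in wild-type fat (horizontal) and in Srgn-knockout fat (vertical). Red and blue points are the 230 and 98 genes past the rule, open circles the lipid-associated macrophage list, and 3 genes lie outside the axes. The red points lie in the upper right and the blue points in the lower left of the plot.

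General macrophage genes were higher in rich fat together with the lipid-associated ones. They are not on the list used to choose, but they rank the libraries nearly alike, so their difference adds no support of its own. Of 21 tested pan-macrophage genes 20 were higher, 7 of them past the rule, with a median log2 difference of 1.06 beside -0.01 over all genes tested. The list used to choose the libraries had a median of 0.95, with 23 of 25 members higher and 11 past the rule. Cd68, a lysosomal membrane protein of macrophages, measured 103, 332, 130.0 and 149 CPM in the poor and 456, 915, 488 and 372 CPM in the rich libraries, a 3.12-fold difference (log2 1.64 ± 0.37). Ctss, the cathepsin that trims the invariant chain, was 2.70-fold higher (1.43 ± 0.29). Both were clear of overlap, whereas Fcgr1, Lyz2 and C1qb overlapped, with wild-type 2 above the lowest rich library. Fcgr1, the high-affinity IgG receptor, was 9.97 to 41.0 CPM in poor and 35.6 to 59.3 CPM in rich fat.

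Genes of tissue-resident and alternatively activated macrophages differed less. Of 19 tested, 15 were higher and 1, Il10, was past the rule, with a median of 0.51. Il10, which encodes an anti-inflammatory cytokine, was low everywhere, at 0.192 to 1.53 CPM in poor and 1.73 to 3.82 CPM in rich fat. The level of 3 reads was 0.28 to 0.38 CPM, so 1 or more poor libraries lie at or near that floor. Mrc1, the mannose receptor CD206, had a log2 difference of 0.81 ± 0.27 with overlap, and Retnla, a marker of alternative activation, one of -0.22 ± 0.20. Rich and poor libraries overlapped for Retnla. On the pan-macrophage choice of libraries, added after the data were seen, the median of this list was 0.30.

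Of 12 monocyte genes 11 were higher and 3 past the rule (median 0.53). Hp, which encodes haptoglobin and is also made by adipocytes, measured 3124, 9307, 3924 and 4289 CPM in the poor and 9870.2, 10303, 11979.8 and 9916 CPM in the rich libraries. Wild-type 2 stood close to the rich libraries and the other 3 poor libraries lay far lower. F10 (coagulation factor X) and Ms4a6c differed by 1.23 ± 0.19 and 1.20 ± 0.22. Among the 12 genes with the largest higher values outside all lists stood a second coagulation factor, F7 (2.07 ± 0.52). On the pan-macrophage choice the F10 difference was 0.86.

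Lysosomal genes were higher as a broad group of small differences. Of 33 lysosomal enzymes and membrane proteins 29 were higher and 12 of them did not overlap, but only 2, Lgmn and Gla, were past the rule (median 0.39). All 15 tested vacuolar ATPase subunits were higher, 6 without overlap and 1 past the rule (median 0.31). Per-library means of both lists separated rich from poor fat, at 7.28 to 7.58 against 6.83 to 7.17 log2 CPM for the lysosomal list. Lgmn, the asparaginyl endopeptidase legumain, measured 236, 505, 196 and 187 CPM in the poor and 556, 856, 566 and 507 CPM in the rich libraries. Gla, which degrades globotriaosylceramide, measured 12.1, 20.9, 9.33 and 16.3 CPM in the poor and 26.2, 46.7, 33.2 and 25.9 CPM in the rich libraries. For Lgmn, wild-type 2 lay next to Srgn-knockout 4, the lowest rich library, and the other 3 poor libraries lay far lower. Tcirg1, a proton pump subunit of osteoclasts and macrophages, differed by 1.13 ± 0.19, and Atp6v1b2, another pump subunit, by 0.88 ± 0.16. The abundant Psap (prosaposin) and Grn (progranulin) were higher by 0.78 ± 0.19 and 0.69 ± 0.16 without overlap. The selection marker Atp6v0d2, of the same pump, differed by 2.44 ± 0.72.

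Promoters are shown here because lysosomal genes are known to carry the CLEAR motif. RefSeq promoters (GRCm38.p6, 250 bases before to 50 after each start) were matched by symbol for 9921 of the 13080 tested genes. The shares below count genes, and a gene counts where any of its promoters holds the motif. Genes with several promoters thus have more chances of a match. The CLEAR core TCACGTGA, a palindrome that reads alike on both strands and contains the E-box CACGTG, was found in 2.08% of these genes. It was found in 5 of 26 matched lysosomal genes (19.2%), in 3 of 12 vacuolar ATPase genes (25%) and in 1 of 20 lipid-associated macrophage genes. CACGTG was found in 11.4% of all, 34.6% of lysosomal and 33.3% of vacuolar ATPase genes. GAGGAAGT, the core of PU.1 sites, was searched on both strands and found in 3.67% of all matched genes. It was found in 15 of 176 matched genes past the rule and higher (8.52%) and in 3 of 20 lipid-associated macrophage genes (15%). Among the 176 genes TCACGTGA was found in 1.14% and CACGTG in 6.25%. GAGGAAGT was found in 11.5% of lysosomal and 0% of vacuolar ATPase genes. It was found in 4.69% of matched genes past the rule and lower. The 250 bases before the start of Gla (lysosomal, past the rule), Spp1 (osteopontin) and Mmp12 (macrophage elastase) follow, 5′ to 3′ in the direction of the gene. Capitals mark TCACGTGA and either strand of GAGGAAGT (ACTTCCTC on the other). Lgmn is shown for CACGTG alone.
Gla, chrX:134601006-134601255, minus strand: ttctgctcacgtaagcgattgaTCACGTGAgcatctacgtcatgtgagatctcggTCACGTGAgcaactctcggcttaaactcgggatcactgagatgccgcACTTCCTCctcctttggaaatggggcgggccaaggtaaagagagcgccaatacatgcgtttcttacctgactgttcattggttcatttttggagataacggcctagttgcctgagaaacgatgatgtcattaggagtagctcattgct
Spp1, chr5:104434861-104435110, plus strand: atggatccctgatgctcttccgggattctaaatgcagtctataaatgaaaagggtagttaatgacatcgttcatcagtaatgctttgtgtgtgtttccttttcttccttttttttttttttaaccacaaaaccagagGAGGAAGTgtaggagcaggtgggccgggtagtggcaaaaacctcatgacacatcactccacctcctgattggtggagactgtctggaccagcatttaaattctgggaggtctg
Mmp12, chr9:7344147-7344396, plus strand: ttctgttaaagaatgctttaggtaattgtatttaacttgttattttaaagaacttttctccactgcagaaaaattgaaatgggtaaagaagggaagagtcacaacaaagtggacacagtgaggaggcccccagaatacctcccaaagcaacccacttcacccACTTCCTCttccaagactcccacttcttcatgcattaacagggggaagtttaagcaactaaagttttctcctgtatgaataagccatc
Lgmn, chr12:102439093-102439342, minus strand: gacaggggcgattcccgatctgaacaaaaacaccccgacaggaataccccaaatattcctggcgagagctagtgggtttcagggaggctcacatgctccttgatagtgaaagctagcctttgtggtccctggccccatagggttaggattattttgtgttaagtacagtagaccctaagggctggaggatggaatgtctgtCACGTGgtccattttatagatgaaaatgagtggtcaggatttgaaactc
Gla carries the CLEAR core at 2 places and GAGGAAGT at 1. A match is a description of letters, and no binding was measured. Spp1, Mmp12 and Lgmn have further promoters that hold none of these motifs. The genes printed are those with a motif. Trem2, Gpnmb, Itgax, Lgals3, Lipa, Plin2, Pld3 and Tcirg1, also list genes past the rule, hold none of these motifs in the same stretch.

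Signals between immune cells were also higher. Of 22 chemokine and receptor genes 19 were higher and 4 past the rule (median 0.88), all of them CC chemokines. Ccl9 measured 141, 385, 175 and 193 CPM in the poor and 691, 774, 635 and 583 CPM in the rich libraries. Ccl6 differed by 1.23 ± 0.18, and the low-level Ccl12 and Ccl3 by 1.55 ± 0.50 and 1.46 ± 0.38. The inflammatory cytokine and inflammasome list had 16 of 20 members higher and none past the rule, with a median of 0.33. Its members with the largest differences, the acute-phase gene Saa3 (1.90 ± 0.87) and the interleukin-1 receptor antagonist Il1rn (1.81 ± 0.64), overlapped through wild-type 2. Interferon-induced genes were split, with 12 of 18 higher, none past the rule and a median of 0.26, and without wild-type 3 their median was -0.0025. Gbp2, an interferon-induced GTPase, reached 129 CPM in wild-type 3, and the other 7 libraries lay between 51.5 and 80.4 CPM.

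Complement genes went both ways, with 3 receptor genes of myeloid cells past the rule higher and 1 gene past it lower. C3ar1, the receptor for C3a, differed by 1.50 ± 0.32, and Itgb2, the integrin chain of complement receptor 3, by 1.34 ± 0.32. Cfd, the adipocyte protease adipsin (complement factor D), measured 10814, 2509.6, 4115 and 3259 CPM in the poor and 1375, 1369.6, 1334 and 1835 CPM in the rich libraries. Wild-type 1 was far above every other library, and all 4 poor libraries exceeded all 4 rich ones. C3 itself was 0.71 ± 0.26 with overlap.

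Antigen-presenting and lymphoid genes did not move as a block. Of 10 MHC class II genes 9 were higher (median 0.62), and none was past the rule. Cd74, the invariant chain, was 2183 to 3953 CPM in poor and 4041 to 4852 CPM in rich fat. Dendritic cell lineage genes were evenly divided, 8 higher and 8 lower (median 0.01). Of 11 tested T cell genes 5 were higher (median -0.02), and 1, Il7r, was past the rule. Il7r, the interleukin-7 receptor, measured 5.85, 12.5, 5.05 and 8.78 CPM in the poor and 31.7, 52.2, 22.3 and 32.2 CPM in the rich libraries, while the T cell adhesion gene Cd2 differed by -0.04 ± 0.18. B cell and plasma cell genes were lower in 12 of 16 cases (median -0.44), with a median of -0.04 on the pan-macrophage choice of libraries and of -0.18 without wild-type 2. Their 1 gene past the rule was the inhibitory receptor Cd22, which was higher (1.02 ± 0.25). Cytotoxic genes had a median of 0.30 with none past the rule, and their median ran from 0.04 to 0.72 over the alternatives. Klrb1c of this list (NK1.1) was 189 CPM in Srgn-knockout 3 and 1.87 to 9.65 CPM in the other 7 libraries. Its log2 difference of -2.08 ± 1.94 became 0.74 without that library. Of 11 mast cell genes 5 were higher (median -0.06), and the tryptase Tpsb2 and the chymase Cma1 differed by 0.07 ± 0.22 and 0.03 ± 0.19. Of 13 neutrophil genes only 6 passed the filter on low counts, with 4 higher, 2 lower, none past the rule and a median of 0.40. With a mean CPM of at least 5 as the filter, the median of this list was -0.86. S100a8 differed by 1.28 ± 0.65 and Mmp9 by -1.41 ± 0.73, both with overlap. Lcn2 of this list (lipocalin 2) was 578 CPM in Srgn-knockout 3 and 25.0 to 82.0 CPM in the other 7.

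**Figure D3:**
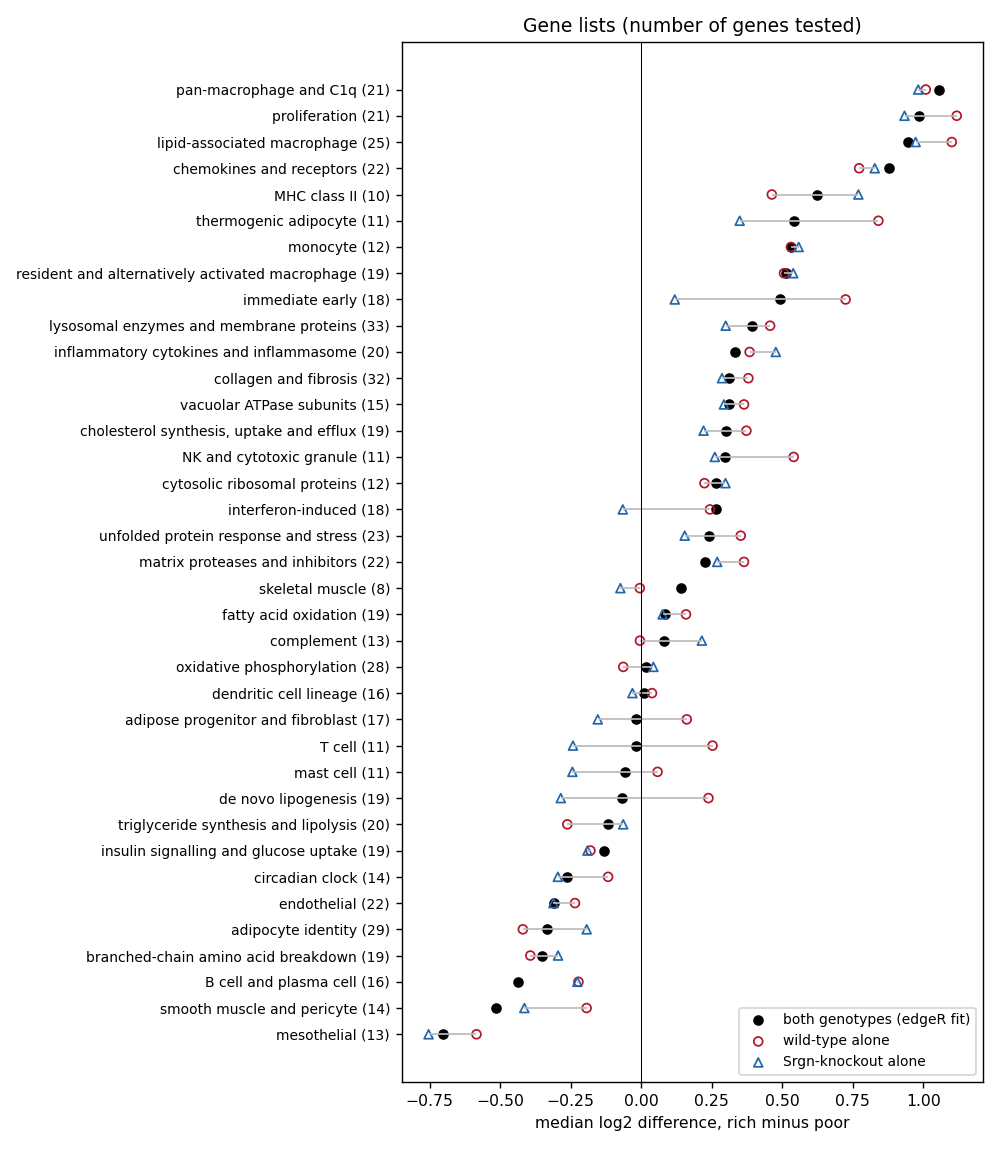
Median log2 difference, rich minus poor, of each gene list with 8 or more tested genes; filled circles are the fit over both genotypes, open circles wild-type alone and triangles Srgn-knockout alone. The pan-macrophage, proliferation and lipid-associated macrophage lists lie at the upper end near 1, the resident macrophage list at 0.51 and the mesothelial list at the lower end at -0.70. The epididymis and testis, neutrophil and blood lists had fewer tested genes and are not drawn.

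Proliferation genes were higher without exception. All 21 tested were higher in the fit and in each genotype alone, 15 of them without overlap and 8 past the rule (median 0.99). Birc5 (survivin), which acts at the mitotic spindle, measured 5.85, 21.0, 13.3 and 13.5 CPM in the poor and 35.0, 53.4, 45.5 and 30.0 CPM in the rich libraries. The mitotic kinesin Cenpe and the mitotic kinase Cdk1 differed by 1.41 ± 0.27 and 1.29 ± 0.32. Ube2c, a ubiquitin ligase partner in mitosis, differed by 1.12 ± 0.24. Per-library means of the list were 2.54 to 3.76 log2 CPM in poor and 3.98 to 4.47 in rich fat, so they did not overlap.

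Stress genes were also mostly higher. Of 23 genes of the unfolded protein response and stress list 21 were higher, 11 without overlap and 4 past the rule (median 0.24, and 0.33 without Srgn-knockout 3). Atf3, a stress-induced transcription factor, measured 20.9, 73.4, 19.8 and 30.3 CPM in the poor and 126, 277, 84.4 and 101 CPM in the rich libraries. Gdf15, a stress-induced hormone, was 2.21 to 3.54 CPM in poor and 5.18 to 17.0 CPM in rich fat, a 3.68-fold difference. Hmox1 (heme oxygenase 1) and the metallothionein Mt1 differed by 1.13 ± 0.20 and 1.10 ± 0.28. Mt1 reached 911 CPM in wild-type 2 and 914 CPM in wild-type 5, which are neighbours across the boundary. Of 18 immediate early genes 15 were higher and 2, Atf3 and Fos, past the rule, with a median of 0.72 among wild-type and 0.12 among Srgn-knockout libraries. Their median over both was 0.49, and 0.25 on the pan-macrophage choice. All 12 tested cytosolic ribosomal protein genes were higher (median 0.27), 3 without overlap. The largest differences were those of Rplp0 (0.97 ± 0.44) and Rps4x (0.57 ± 0.39), which were also the least read, at 0.658 to 2.52 and 0.831 to 3.43 CPM over the 10 libraries. On the pan-macrophage choice these differences were 0.50 and 0.23.

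The largest differences among matrix genes were those of proteases. Mmp12, the macrophage elastase, which was among the genes used to choose, measured 9.87, 45.5, 25.3 and 44.3 CPM in the poor and 142, 278, 97.4 and 99.5 CPM in the rich libraries. Mmp3 (stromelysin) and Adam8, a membrane protease of leukocytes, were not among them and differed by 2.13 ± 0.53 and 2.03 ± 0.44. Of the 22 tested proteases and inhibitors 15 were higher, these 3 past the rule, and the median was 0.23. Of 32 collagen and fibrosis genes 27 were higher but none was past the rule (median 0.31). Their per-library means were 7.32 to 7.91 log2 CPM in poor and 7.99 to 8.09 in rich fat. Col12a1, a fibril-associated collagen, had a difference of 1.23 ± 0.35, with overlap. Sparc, an abundant matrix glycoprotein, differed by 0.10 ± 0.16.

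Adipocyte genes were lower in rich fat as a group, with a few large differences among many small ones. Of 29 adipocyte identity genes 24 were lower, 7 without overlap and 2, Cfd and Adrb3, past the rule (median -0.34). Adrb3, the adipocyte adrenergic receptor that drives lipolysis, measured 434, 110.3, 242 and 209 CPM in the poor and 84.7, 81.4, 51.1 and 100.04 CPM in the rich libraries. Wild-type 2 lay next to Srgn-knockout 4 and the other 3 poor libraries lay well above. Cyp2e1 had a difference of -2.07 ± 0.55 but overlapped, because Srgn-knockout 4 reached 754 CPM while the other rich libraries stayed between 131 and 233 CPM. Car3 (carbonic anhydrase 3) differed by -0.90 ± 0.19, and Fabp4 by -0.06 ± 0.14. The adipocyte genes that were lower thus ranged from a level close to that of poor fat to a several-fold lower one. The other 5 were higher, among them Lpl (0.08 ± 0.14), which is also on the list used to choose.

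Genes of lipid handling also differed unequally. Pck1, whose product makes glycerol 3-phosphate for fatty acid re-esterification in fat, measured 4615, 783, 1888 and 1006 CPM in the poor and 309, 555, 366 and 744 CPM in the rich libraries. Of 20 triglyceride synthesis and lipolysis genes 16 were lower (median -0.12), with Pck1 and Adrb3 past the rule, while Dgat2, which completes triglyceride synthesis, differed by -0.14 ± 0.15. De novo lipogenesis had no common direction, with 7 of 19 higher (median -0.07). Fasn (fatty acid synthase) differed by -0.02 ± 0.19 and Scd1 (stearoyl-CoA desaturase) by -0.43 ± 0.18. Elovl3, a fatty acid elongase of thermogenic fat, was 0.0959 to 1.66 CPM in poor and 2.65 to 6.70 CPM in rich fat, and in 2 of the 4 poor libraries it lay under the level of 3 reads. Of 11 thermogenic genes 8 were higher (median 0.54), with Elovl3 and the proton channel gene Otop1 (1.62 ± 0.71) past the rule. Ucp1 (uncoupling protein 1) of this list did not pass the filter on low counts, with at most 9 reads in a library. Per-library means of the list overlapped, at 1.90 to 3.26 log2 CPM in poor and 2.91 to 3.54 in rich fat. Branched-chain amino acid breakdown was lower in 17 of 19 genes (median -0.35) with none past the rule, and Ivd, the isovaleryl-CoA dehydrogenase, differed by -0.63 ± 0.20. Oxidative phosphorylation (median 0.02) and fatty acid oxidation (median 0.08) were near all genes tested. Among fatty acid oxidation genes the regulator Ppara was lower (-0.68 ± 0.18) and the mitochondrial enzyme Hadha higher (0.46 ± 0.12), both without overlap.

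Of 19 insulin signalling and glucose uptake genes 14 were lower (median -0.13). Slc2a4, the insulin-responsive transporter GLUT4, differed by -0.82 ± 0.22 and Irs1, an insulin receptor substrate, by -0.89 ± 0.30. Irs1 did not overlap, and wild-type 1 at 87.8 CPM lay far above the other 3 poor libraries, at 29.8 to 34.9 CPM. In the cholesterol list 14 of 19 were higher (median 0.30), and 2 were past the rule. They were Soat1, which esterifies cholesterol (1.38 ± 0.29), and Lipa, the lysosomal acid lipase (1.26 ± 0.32), which also belongs to the list used to choose. Of the sterol synthesis enzymes, Dhcr7 differed by 1.07 ± 0.36, with overlap, and Hmgcs1 by 0.20 ± 0.16. Of 14 clock genes 9 were lower (median -0.26, none past the rule), among them Per3 (-1.02 ± 0.29) and Nr1d1 (-0.73 ± 0.23).

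**Figure D4:**
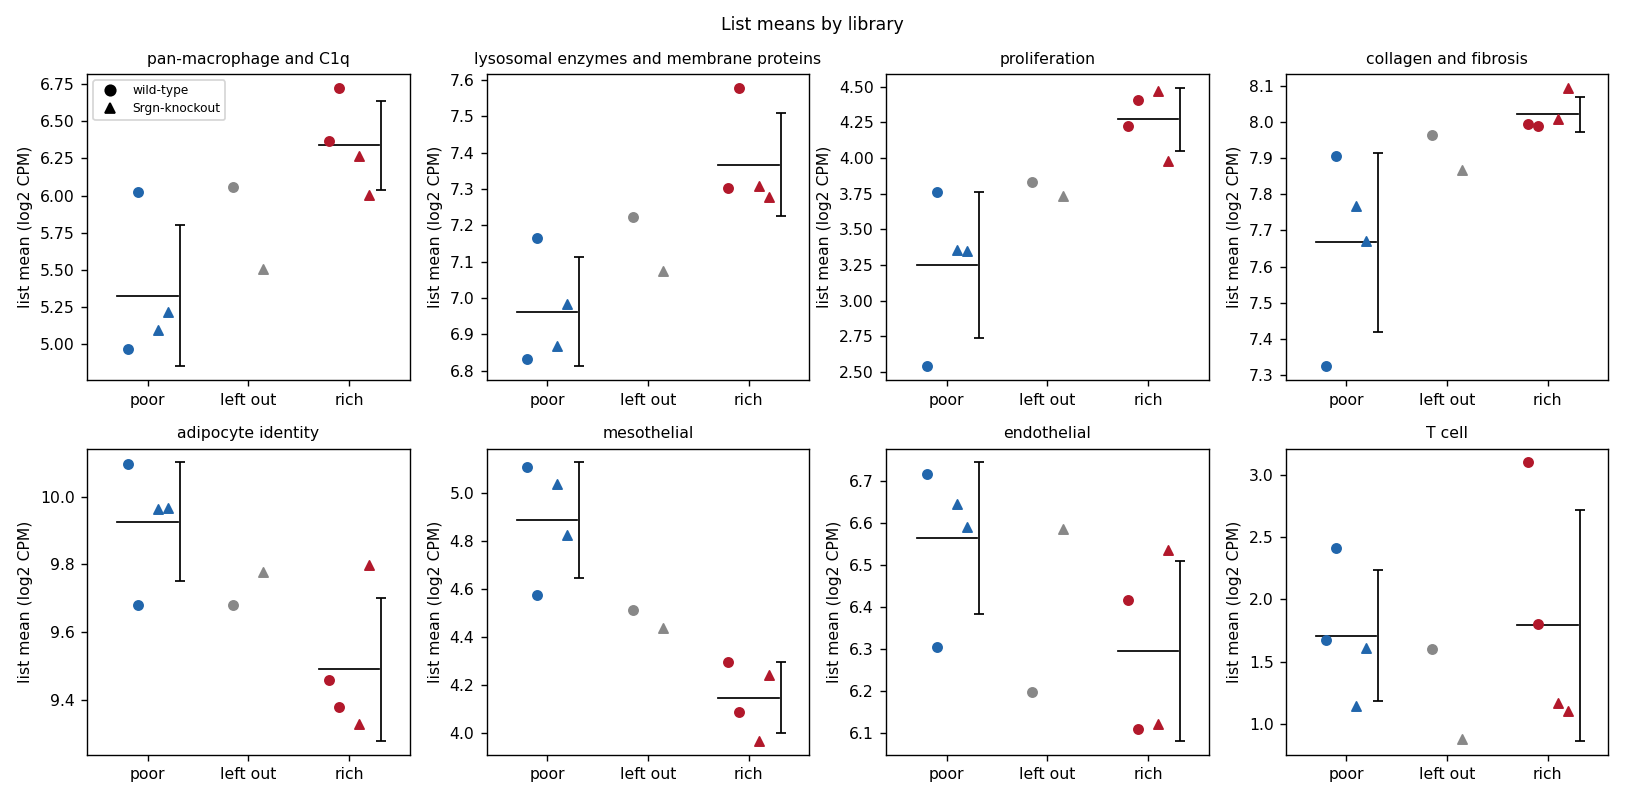
Mean log2 CPM of 8 gene lists in each library, by poor, left-out and rich fat (circles wild-type, triangles Srgn-knockout; lines are means and bars SD over 4 libraries). Poor and rich libraries separate for the lysosomal, proliferation, collagen and mesothelial lists and overlap for the other 4.

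Mesothelial genes were lower throughout. The mesothelium, the cell layer that covers visceral fat, had all 13 tested genes lower in rich fat, 7 of them without overlap (median -0.70). Upk1b, a uroplakin of mesothelium, was the 1 past the rule and measured 71.7, 48.0, 41.3 and 69.2 CPM in the poor and 26.2, 33.3, 22.8 and 29.1 CPM in the rich libraries. Msln (mesothelin) and Upk3b were lower by 1.82-fold and 1.60-fold without overlap. Per-library means of the list were 4.58 to 5.11 log2 CPM in poor and 3.97 to 4.29 in rich fat, and 4.51 and 4.44 in the left-out wild-type 4 and Srgn-knockout 5.

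Of 22 endothelial genes 18 were lower (median -0.31), none past the rule. Kdr, the main receptor for vascular endothelial growth factor, was 44.9 to 84.7 CPM in poor and 27.0 to 50.3 CPM in rich fat, and overlapped. Lyve1, of lymphatic endothelium and some macrophages, went the other way (0.59 ± 0.18). Smooth muscle and pericyte genes were lower in 11 of 14 cases (median -0.51), and the pericyte gene Rgs5 (-0.65 ± 0.21) did not overlap. Actg2 of this list was 338 CPM in Srgn-knockout 3 and 3.63 to 19.7 CPM in the other 7 libraries. Its difference of -2.82 ± 1.82 was -0.73 without Srgn-knockout 3. Adipose progenitor genes had no common direction (8 of 17 higher, median -0.02).

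Outside all lists, the 12 genes with the largest difference in each direction were taken among those with a mean of at least 10 CPM and no overlap. Higher in rich fat were Vsig8, Zranb3, Rgs1, Tm4sf19, Tlr13, F7, Hpgds, Ubd, Dhrs9, Fcgr4, Slc37a2 and Arhgap25, with log2 differences from 2.89 to 1.78. Several are known from myeloid cells: Tlr13 senses bacterial ribosomal RNA, Fcgr4 binds IgG, and Hpgds makes prostaglandin D2. Vsig8, a membrane protein of the immunoglobulin family, measured 1.63, 6.02, 3.62 and 4.63 CPM in the poor and 25.8, 47.3, 20.8 and 26.5 CPM in the rich libraries. Its log2 difference was 2.89 ± 0.38, beside 1.66 to 2.44 for the 4 selection markers, and on the pan-macrophage choice of libraries it was 2.0. Tlr13 measured 7.09, 27.3, 8.34 and 12.1 CPM in the poor and 60.2, 85.1, 44.4 and 45.4 CPM in the rich libraries. Zranb3, a helicase that remodels replication forks, differed by 2.54 ± 0.44, and Rgs1, which shortens G protein signalling, by 2.52 ± 0.75. Rich and poor came close for Rgs1, at 11.2 CPM in wild-type 2 and 12.4 CPM in wild-type 3.

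Lower in rich fat were Myo5b, Agt, Snhg11, Plagl1, Axin2, Chst1, Sytl4, Ffar4, Slc2a13, Reep6, Pacsin3 and Bmp7, from -1.49 to -1.21. Agt, which encodes angiotensinogen, a precursor that fat secretes, measured 367, 138, 244 and 167 CPM in the poor and 86.6, 42.8, 95.5 and 109.7 CPM in the rich libraries. Axin2, a feedback target of Wnt signalling, measured 64.9, 29.9, 61.4 and 46.3 CPM in the poor and 14.2, 21.0, 24.6 and 19.0 CPM in the rich libraries. Ffar4, the adipocyte receptor for long-chain fatty acids, measured 61.9, 24.7, 52.2 and 35.7 CPM in the poor and 14.5, 20.6, 17.4 and 19.8 CPM in the rich libraries. For Axin2 and Ffar4 wild-type 2 was the lowest poor library, next to the rich ones. Wild-type 1 was the highest poor library for Agt, Axin2 and Ffar4, and for Chst1, a sulfotransferase, where it had 229 CPM against 58.6 to 73.8 CPM in the other 3 poor libraries. Myo5b and Sytl4, both of vesicle transport, were highest in Srgn-knockout 3 at 48.1 and 40.8 CPM, and the next poor library had 15.5 and 7.29 CPM. The part of epididymis RNA in these 2 genes was not tested, and Myo5b differed by -0.87 without that library.

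**Figure D5:**
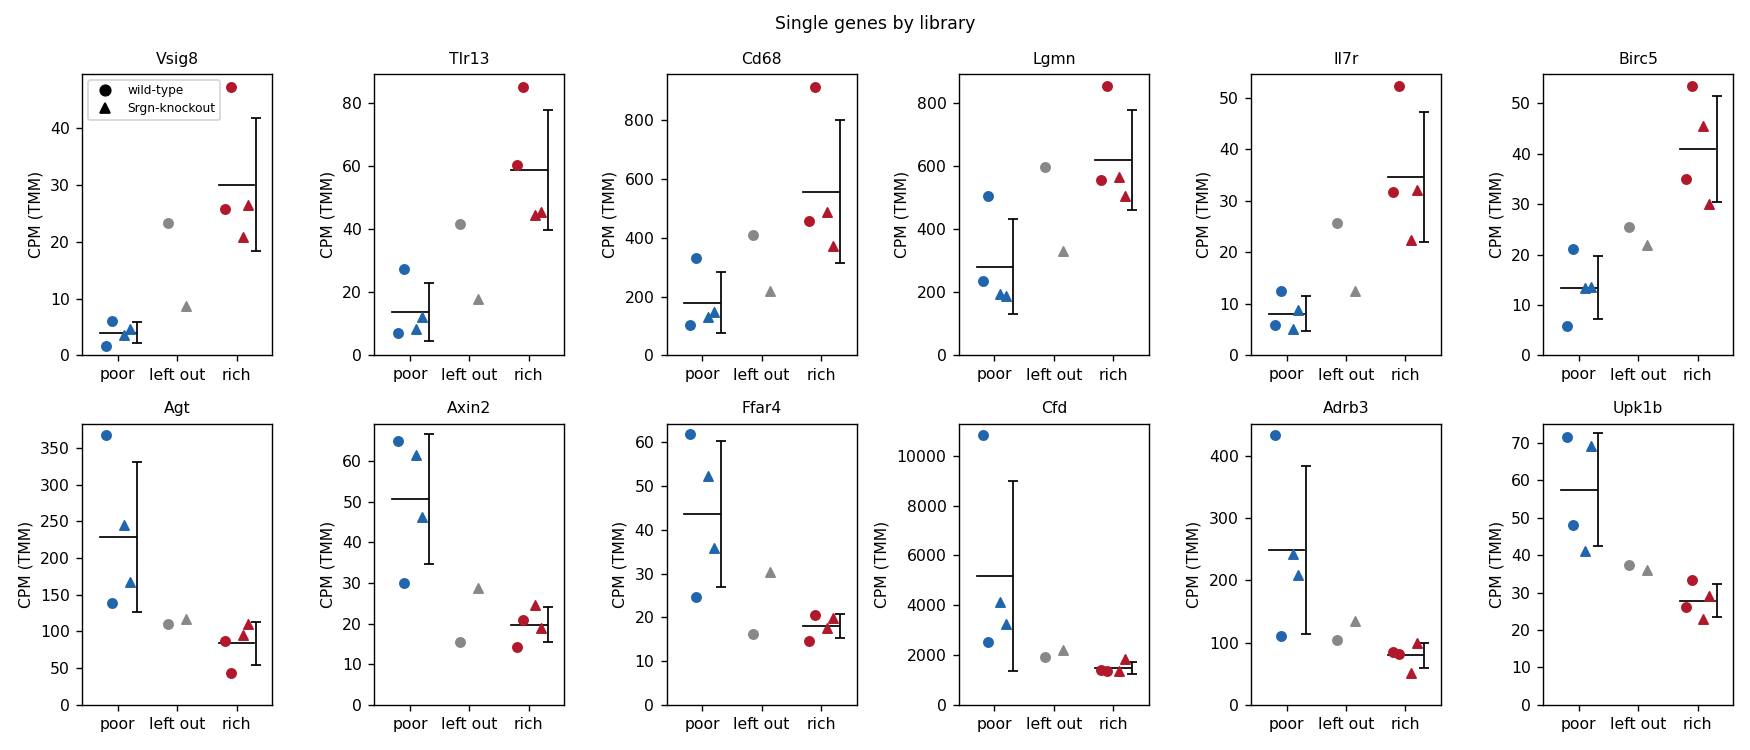
CPM of 12 genes in each library, by poor, left-out and rich fat (circles wild-type, triangles Srgn-knockout; lines are means and bars SD over 4 libraries). The upper genes are higher in every rich than in every poor library and the lower genes the reverse, with the left-out libraries between or on either side.

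The 2 left-out libraries are in neither group, but the same score placed each between the rich and the poor fat of its genotype. Among the 219 genes past the rule and higher outside the selection list, wild-type 4 lay nearer to the rich than to the poor mean in 175 (79.9%) and Srgn-knockout 5 in 70 (32%). Wild-type 4 was higher than Srgn-knockout 5 in 177 (80.8%). Among the 98 genes lower in rich fat, wild-type 4 lay on the rich side in 65 (66.3%) and Srgn-knockout 5 in 43 (43.9%). This is the order of their scores, 8.09 and 7.70. Genes past the rule were found between libraries chosen by that score, so these shares are a description and support nothing. The 2 libraries also differ in genotype, and with 1 library per genotype there is no test.

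The genotypes could be tested, because the choice was made within each genotype and left 4 libraries of each. This comparison asks what the loss of serglycin changes once rich and poor fat enter both arms equally. With rich or poor as a covariate, 1 of 13080 genes was lower in Srgn-knockout fat at an adjusted p under 0.05 in the edgeR quasi-likelihood test (0.00765%) and 0 (0%) were higher. The 1 gene was Srgn itself, with 776 to 1301 reads in the 4 wild-type and 0 to 3 reads in the 4 Srgn-knockout libraries (edgeR adjusted p = 2.81e-07). At an unadjusted p under 0.05, 600 genes were higher and 644 lower. DESeq2 called 10 higher and 34 lower, and limma-voom 0 and 1. The 3 higher genes with the smallest p were Kdr, Pnpla3 (a lipid droplet acyl hydrolase) and the noncoding Ccpg1os, each at an edgeR adjusted p of 0.417. All 3 passed in DESeq2. Pnpla3 averaged 430.0 ± 45.2 CPM over the wild-type libraries and 736 ± 205 CPM over the Srgn-knockout libraries (mean ± SD, n = 4), and the genotypes did not overlap. Ccpg1os was 12.9 ± 2.13 against 20.4 ± 2.96 CPM, likewise without overlap. Its counts are not stated to use strand, so reads of a gene on the other strand cannot be told apart from its own. Over all 13080 genes, 301 were higher and 277 lower in Srgn-knockout fat without overlap of the genotypes, so the lack of overlap does not set these genes apart.

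Balance in numbers did not make the macrophage level equal. All 21 tested pan-macrophage genes had a lower fitted level in Srgn-knockout than in wild-type fat (median log2 -0.44), as did 20 of 25 lipid-associated macrophage genes (median -0.37), with none past the threshold. All 11 tested T cell genes (median -1.15) and 15 of 16 B cell genes (median -0.79) were likewise lower, again with none past the threshold, beside a median of 0.00 and 6444 of 13080 genes lower over all genes tested. These lists were chosen with earlier results of these data known, so the counts are a description.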

How the data were processed

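Total RNA of 10 epididymal fat samples was read by Ion AmpliSeq on an Ion S5 XL, per the labels' protocols. The authors deposited raw counts (whole-number reads per amplicon) and RPM values; each RPM is the count scaled by its column total, with a largest difference of 0.00059. The build was mm9, per the submitters' processing notes; the aligner and the counter: not given in the sources used here. Amplicon reads carry no molecular identifiers, so the 3-read floor covers counting error only. Differences are taken between libraries. Levels of different genes enter where genes are called abundant, low or least read, are summed, or were named by level. Amplicons were not calibrated against each other, so such levels are rough.

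Counts were analysed in R 4.3.3 with edgeR 4.0.16: filterByExpr (minimum count 10, minimum total 15), TMM factors and a robust quasi-likelihood fit with genotype and rich or poor as terms on 8 libraries. For rich minus poor only differences, SE and overlap are given. For genotype, two-sided p-values were adjusted by Benjamini-Hochberg over 13080 genes, with a threshold of 0.05. They rest on the spread left between these samples after the rich or poor term. That term was made from the samples' own values, so this is not the full spread within a genotype. Alternatives were DESeq2 1.42.0, limma 3.58.1 (voom), other scalings, filters, pseudocounts (1 and 0.1) and choices of libraries, and each library left out. The scripts were tested on simulated data. Per-library list means use log2 CPM with a prior count of 2. Left-out libraries were placed against the rich and poor means.

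The members, the gene lists and the rules were chosen with earlier results of these data known. Named genes are Srgn, the 4 markers, the 12 largest differences per direction outside all lists (mean CPM of at least 10, no overlap, no clone names), up to 3 members per list with the largest difference and the 2 with the highest level, and up to 3 genes with the smallest genotype p per direction where none passes; Spp1 was chosen after its values were seen. One gene that this rule selects is not reported here.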

Additional observations from a re-analysis of the deposited data

Results flagged for a closer look

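Within the 4 rich or the 4 poor libraries, some values stand apart from the other 3 by more than Dixon's 95% critical value for 4 samples. In random samples from a normal distribution chance flags about 1 in 20 groups. These libraries were picked by their score and single genes are on the CPM scale, so that rate need not hold here. The flags are a description.

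Wild-type 5 stood above the other rich libraries. Its mean log2 CPM was 8.99 for the lipid-associated macrophage list and 7.58 for the lysosomal list. Its CPM was 482 for Trem2, 385 for Atp6v0d2, 78.5 for Hpgds, 162 for Arhgap25, 856 for Lgmn, 163 for Tcirg1, 345 for Atp6v1b2, 266 for C3ar1, 586 for Itgb2, 183 for Adam8 and 81.8 for Soat1. Srgn-knockout 4 stood above the other rich libraries for the adipocyte genes Cfd (1835 CPM), Cyp2e1 (754 CPM), Car3 (13982 CPM) and Scd1 (25843 CPM), and below them for Fcgr1 (35.6 CPM) and Dhcr7 (136 CPM). Wild-type 3 had the highest interferon-induced mean (4.46 log2 CPM), and Srgn-knockout 1 the lowest immediate early mean (4.78 log2 CPM).

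Among the poor libraries wild-type 2 stood on the side of the rich ones. Its monocyte mean was 5.37 log2 CPM. Its CPM was 17.0 for Slc37a2, 1980.1 for Lyz2, 267 for Mrc1, 3953 for Cd74, 505 for Lgmn, 463 for Ccl6, 26.7 for Il1rn, 96.1 for C3ar1, 1893 for C3 and, below the other 3, 12864.5 for Car3. Srgn-knockout 3, the library with the most epididymis RNA, was far above the others for Myo5b (48.1 CPM), Sytl4 (40.8 CPM), Lcn2 (578 CPM), Klrb1c (189 CPM) and Actg2 (338 CPM). Wild-type 1 was above the others for Chst1 (229 CPM), Upk3b (185 CPM) and Irs1 (87.8 CPM) and below them for Hmgcs1 (346 CPM).

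The genotypes moved in opposite directions, every rich library against every poor one, for 2 values. The adipose progenitor and fibroblast mean was higher by 0.0965 in rich wild-type fat and differed by -0.13 in Srgn-knockout fat. Dgat2 differed by -0.35 in wild-type and by 0.09 in Srgn-knockout fat. Neither difference between genotypes was tested.

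The left-out libraries, which are in neither group, carried epididymis and testis transcripts at 1245 CPM (wild-type 4) and 1086 CPM (Srgn-knockout 5). Apart from Srgn-knockout 3, the highest sum in the other libraries was 145 CPM.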

How the results depend on the processing

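Lowest and highest counts over the 8 fits that leave out 1 library each were 173 and 597 genes past the rule and higher in rich fat, and 87 and 389 lower. Each such fit tests 1 library fewer for overlap, which by construction is easier to avoid. The fitted differences change as well, and both lowest counts were those without wild-type 1. With no filter on low counts 206 genes were lower, with a mean CPM of at least 5 there were 45, and with the deposited RPM on log2(RPM + 1) there were 49; fewer or more genes tested, or a pseudocount that shrinks low genes, belong to these settings. No overlap within each genotype, an alternative added after the data were seen, gave 149 lower. Under the other settings the counts stayed within 1.5 times of 230 and 98, but on the pan-macrophage choice of libraries, also added later, 119 of the 169 higher and 46 of the 143 lower genes were among those 230 and 98. With that choice 54.2% of genes past the rule were higher, and with no filter 56.5%, against 70.1%; with total counts alone the share was 64.6%. Of the list medians 694 values under an alternative moved by less than the spread over libraries and 25 by more, and of the single genes 1944 and 13.

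For the genotypes, DESeq2 called 10 genes higher and 34 lower (4565 genes without an adjusted p), and edgeR with no filter 20 and 34; the cause was not tested. Leaving out 1 library gave 0 or 1 gene higher and 1 lower. The fitted log2 difference of Srgn, which depends on the prior count, was -9.78 and ran from -10.90 to -9.38 with 1 library left out and was -8.19 over all 10 libraries with no covariate. Pnpla3 and Kdr passed in DESeq2 (adjusted p = 0.00146 and 0.0135) and with no filter in edgeR (adjusted p = 0.00312 and 0.0123), and Ccpg1os in DESeq2 (adjusted p = 0.0288); the highest adjusted p of all 3 over the alternatives was 0.863. No paired analysis was possible because the labels give no replicate numbers, and those used here follow deposition order. A count of 3 reads is 0.279 to 0.383 CPM, which limits what low genes can show. With 4 libraries per side the overlap rule rests on the extreme libraries.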
